A study of Homo sapiens and Mus musculus with 55 samples.

Results

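A set of 10 genes of the NF-kB system were followed through the series by their symbols: the 5 subunit genes NFKB1, NFKB2, RELA, RELB and REL, the inhibitor genes NFKBIA and NFKBIE, and the feedback targets TNFAIP3, BIRC3 and TRAF1. All 10 were listed in each of the 10 tables, among 24465 to 36036 listed genes, with the mouse orthologs taken in the mouse tables. RNA sequencing of 55 libraries covered 4 breast cancer cell lines. The human lines MDA-MB-436 and SUM159PT stem from triple-negative tumours, whereas Py230 and 4T1 come from mouse mammary tumours. The study asked, by its title, how MYC represses STING, the adaptor of cytosolic DNA sensing; MYC itself is an oncogenic transcription factor.

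The groups were these. Untreated parental cells and cells labelled Tax-R of both human lines had 2 libraries each. Tax-R cells of both human lines (2 libraries per group) and 4T1 cells (3 per group) received a control siRNA, MYC siRNA-1 or MYC siRNA-2. From each human line, 2 libraries of mock cells were set beside 2 of a STING sgRNA group labelled C1 and 2 of a group labelled C2, and it is not stated whether C1 and C2 are guides, clones or pools. Cells that all carried a STING sgRNA were given an open reading frame (ORF), either of GFP or of STING, with 2 libraries per group and human line. Py230 cells that all carried a Sting1 shRNA received vehicle or doxycycline, with 3 libraries each and no doxycycline group without the shRNA. Doses, times and promoters are not stated, and no label calls the replicates separate cultures. The p-values therefore reflect only how much these libraries vary, which may be technical.

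NF-kB dimers are held in the cytoplasm by IkB proteins. In the canonical pathway the IKK complex phosphorylates IkB-alpha (NFKBIA) and IkB-epsilon (NFKBIE), which marks them for degradation. RELA, REL and p50 (from NFKB1) then enter the nucleus. In the non-canonical pathway NIK and IKK-alpha drive the processing of p100 (NFKB2) to p52, the partner of RELB. Many of the genes that NF-kB activates feed back on it: IkB-alpha and IkB-epsilon recapture the dimers, the ubiquitin editor A20 (TNFAIP3) shuts off signalling at receptors, and the ubiquitin ligase cIAP2 (BIRC3) and the adaptor TRAF1 act at TNF receptors. STING signals mainly through TBK1 and IRF3, and also activates NF-kB.

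Several of these genes are known for NF-kB sites in their promoters. The sequence before the start site of 5 genes is shown because these span the range from frequent to rare change in the tables. All 5 sequences hold a match to the NF-kB motif. The windows of RELA and TRAF1, of the first NFKB2 start and of the second NFKB1 start, which hold none, are not shown. Bases are from RefSeq (GRCh38.p14), 250 bases before an annotated start, 5′ to 3′, and capitals mark matches to the canonical 10-base NF-kB motif on either strand. The intervals are chr10:102394328-102394577 (plus strand, the second of 3 starts) for NFKB2, chr2:60881324-60881573 (plus) for REL, chr14:35404750-35404999 (minus) for NFKBIA, chr6:137867009-137867258 (plus) for TNFAIP3 and chr11:102317234-102317483 (plus) for BIRC3.
NFKB2: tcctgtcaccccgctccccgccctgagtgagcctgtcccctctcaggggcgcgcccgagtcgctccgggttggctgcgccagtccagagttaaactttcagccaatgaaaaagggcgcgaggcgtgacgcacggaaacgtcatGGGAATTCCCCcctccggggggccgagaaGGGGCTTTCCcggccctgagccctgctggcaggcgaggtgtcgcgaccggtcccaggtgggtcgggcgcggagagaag
REL: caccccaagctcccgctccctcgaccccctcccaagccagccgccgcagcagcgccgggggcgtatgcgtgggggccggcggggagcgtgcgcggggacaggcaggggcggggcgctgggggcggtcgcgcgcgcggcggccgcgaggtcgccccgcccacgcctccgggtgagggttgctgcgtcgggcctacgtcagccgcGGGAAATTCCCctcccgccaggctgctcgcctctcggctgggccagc
NFKBIA: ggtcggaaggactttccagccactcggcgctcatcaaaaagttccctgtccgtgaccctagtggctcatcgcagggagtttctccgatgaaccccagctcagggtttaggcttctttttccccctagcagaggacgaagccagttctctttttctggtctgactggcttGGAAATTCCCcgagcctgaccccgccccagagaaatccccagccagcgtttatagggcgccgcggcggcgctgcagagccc
TNFAIP3: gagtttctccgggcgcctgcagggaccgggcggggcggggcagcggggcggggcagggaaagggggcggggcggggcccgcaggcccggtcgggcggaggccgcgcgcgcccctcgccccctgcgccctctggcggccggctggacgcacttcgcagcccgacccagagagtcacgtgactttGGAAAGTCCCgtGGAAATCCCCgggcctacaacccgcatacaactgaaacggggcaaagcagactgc
BIRC3: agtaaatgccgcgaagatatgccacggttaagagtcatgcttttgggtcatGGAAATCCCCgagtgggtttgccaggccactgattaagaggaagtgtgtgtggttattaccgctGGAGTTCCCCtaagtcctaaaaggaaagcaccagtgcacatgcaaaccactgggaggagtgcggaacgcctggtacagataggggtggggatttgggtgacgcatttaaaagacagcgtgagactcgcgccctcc

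Of the 10 genes, 8 were matched in the promoter table, with 14 windows of 300 bases (250 before and 50 after a start), and RELB and NFKBIE were not matched. The motif was present in 7 of the 14 windows, belonging to 6 genes (NFKB1, NFKB2, REL, NFKBIA, TNFAIP3 and BIRC3), against 11.3% of all 35116 windows. NFKBIA had 1 match, 81 bases before the start. TNFAIP3 had 2, at 67 and 55 bases, and BIRC3 had 2, farther away at 199 and 135 bases. In NFKB2 the run of capitals that begins 107 bases before the start holds 2 overlapping matches, followed by another match at 78 bases, and the REL capitals are likewise 2 overlapping matches, at 47 and 46 bases. The RELA and TRAF1 windows held no match. A match is a sequence description and not a measured binding site.

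Values below are normalized counts, that is, gene reads divided by 1 factor per library, and each table was normalized on its own. Changes are differences of log2(value + 1) ± SE between groups. A gene is said to have risen or fallen where limma's adjusted p, over all genes of the table, was below 0.05. Recovered depth was 5663610 to 13191675 reads per library. The targeted gene moved as labelled in the STING comparisons, and the Tax-R comparisons have no targeted gene. STING1 fell in both STING sgRNA comparisons (-1.85 ± 0.15 in MDA-MB-436, -1.28 ± 0.11 in SUM159PT). It rose with the STING ORF (4.47 ± 0.16 and 4.37 ± 0.12) and fell in Py230 (-4.14 ± 0.09). MYC fell by 0.87 in SUM159PT libraries labelled MYC siRNA and by 0.09 in MDA-MB-436, and in 4T1 it did not pass the test (-0.09 ± 0.04, limma adjusted p = 0.0683). These siRNA groups are therefore named by their labels throughout.

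TNFAIP3 passed the test in each of the 10 comparisons, 6 times higher and 4 times lower. NFKBIA and BIRC3 each fell in 7 and rose in 2. NFKB2 rose in 3 and fell in 6, NFKBIE rose in 2 and fell in 4, and RELB rose in 3 and fell in 4. NFKB1 fell in 5 and rose in 0, with its highest value at 0.12. RELA, whose protein carries most canonical transcriptional activity, stayed between -0.31 and 0.45, with 2 rises and 3 falls, and REL passed the test in 1 comparison. TRAF1 rose in 4, fell in 1 and was too low to test in 2. Calls were common among all tested genes too. Depending on the comparison, between 9.2% and 35% of them rose and between 11.9% and 35.1% fell.

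**Figure D1:**
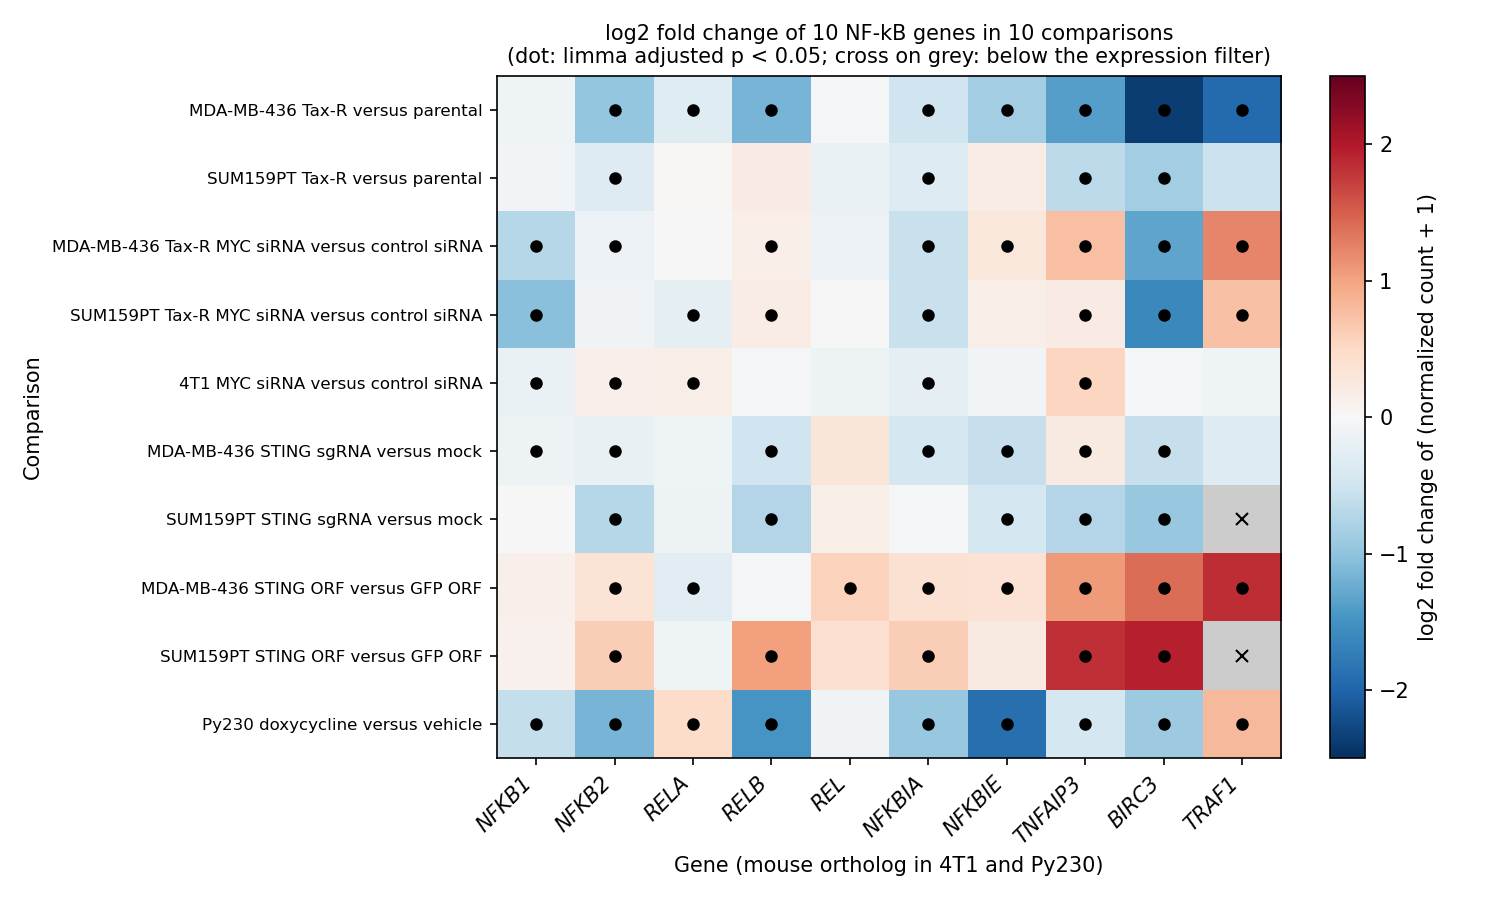
Colour gives the log2 fold change of each gene (columns) in each comparison (rows); a black dot marks limma adjusted p below 0.05, and a cross on grey marks a gene below the filter. BIRC3 spans the widest range, from -2.38 in MDA-MB-436 Tax-R cells to 1.95 with the STING ORF in SUM159PT, while the RELA and REL columns are pale.

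With the STING ORF in place of GFP, the feedback targets TNFAIP3 and BIRC3, the inhibitor gene NFKBIA and the subunit gene NFKB2 rose in both human lines. TNFAIP3 and BIRC3 had the largest of these shared changes. TRAF1 rose in MDA-MB-436 and was too low to test in SUM159PT, and NFKB1 did not pass the test in either line. In MDA-MB-436, 7 of the 10 genes rose and 1 fell, where 9.2% of 14851 tested genes rose and 11.9% fell. In SUM159PT, 5 of the 9 tested genes rose and 0 fell, where 13.2% of 14915 tested genes rose and 12.8% fell. The median change was 0.38 and 0.62, against -0.01 and 0.01 over all genes. Cell type markers moved with these comparisons. In MDA-MB-436, 2 of 2 tested epithelial markers, 2 of 5 mesenchymal markers and the 1 tested leukocyte marker fell and 0 rose, with epithelial sums of 6127 to 6997 with GFP and 4620 to 4809 with STING. In SUM159PT, 4 of 5 mesenchymal and 1 of 2 epithelial markers fell and 0 rose, with mesenchymal sums of 25510 to 25520 with GFP and 20520 to 20910 with STING, and no leukocyte marker was tested. Their part in the result was not tested.

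Among the subunits, NFKB2 was at 811 and 675 with GFP and 959 and 927 with STING in MDA-MB-436 (0.35 ± 0.09, limma adjusted p = 0.00375), and at 380.1 and 355 against 609 and 524 in SUM159PT (0.62 ± 0.10, limma adjusted p = 5.77e-05). In both lines the groups did not overlap. RELB, the p52 partner, was at 67.1 and 74.5 with GFP and 155 and 134 with STING in SUM159PT (1.02 ± 0.16, limma adjusted p = 2.41e-05). In MDA-MB-436 the 2 STING libraries, at 142 and 135, lay between the GFP libraries, at 166 and 124 (-0.05 ± 0.15, limma adjusted p = 0.848). The difference between the lines was not tested, since each table was fitted alone. REL, the lymphoid subunit gene, rose in MDA-MB-436 from 74.3 and 74.4 to 112 and 111 (0.58 ± 0.17, limma adjusted p = 0.0117), and its change in SUM159PT missed the threshold (0.40 ± 0.17, limma adjusted p = 0.0837). RELA fell in MDA-MB-436 (-0.27 ± 0.09, limma adjusted p = 0.0343) and its value in SUM159PT was -0.11 ± 0.09, limma adjusted p = 0.394.

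The inhibitor gene NFKBIA was at 383 and 381 with GFP and 503 and 496 with STING in MDA-MB-436 (0.39 ± 0.09, limma adjusted p = 0.00299), and at 455 and 492 against 767 and 695 in SUM159PT (0.62 ± 0.09, limma adjusted p = 1.75e-05). Each STING library was above each GFP library in both lines. NFKBIE rose in MDA-MB-436, from 136 and 146 to 192 and 171 (0.36 ± 0.13, limma adjusted p = 0.0491), while in SUM159PT the groups overlapped (0.23 ± 0.16, limma adjusted p = 0.327). TNFAIP3, which encodes A20, was at 328 and 312 with GFP and 681 and 659 with STING in MDA-MB-436 (1.06 ± 0.09, limma adjusted p = 1.32e-10). In SUM159PT it stood lower with GFP, at 86.3 and 89.6, and at 321 and 307 with STING (1.83 ± 0.13, limma adjusted p = 3.23e-11). BIRC3 was at 69.8 and 96.3 against 195 and 246 in MDA-MB-436 (1.40 ± 0.16, limma adjusted p = 3.93e-08) and at 60.2 and 69.8 against 224 and 288 in SUM159PT (1.95 ± 0.15, limma adjusted p = 1.6e-10). The STING libraries of both genes were well above the GFP libraries, with gaps larger than the spread within a group. TRAF1 rose in MDA-MB-436 from 7.34 and 8.58 to 36.9 and 26.2 (1.85 ± 0.35, limma adjusted p = 0.000216), a change that rests on 77 reads in all. In SUM159PT it had 7 reads over 4 libraries, too few for a difference to be detectable at this depth.

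**Figure D2:**
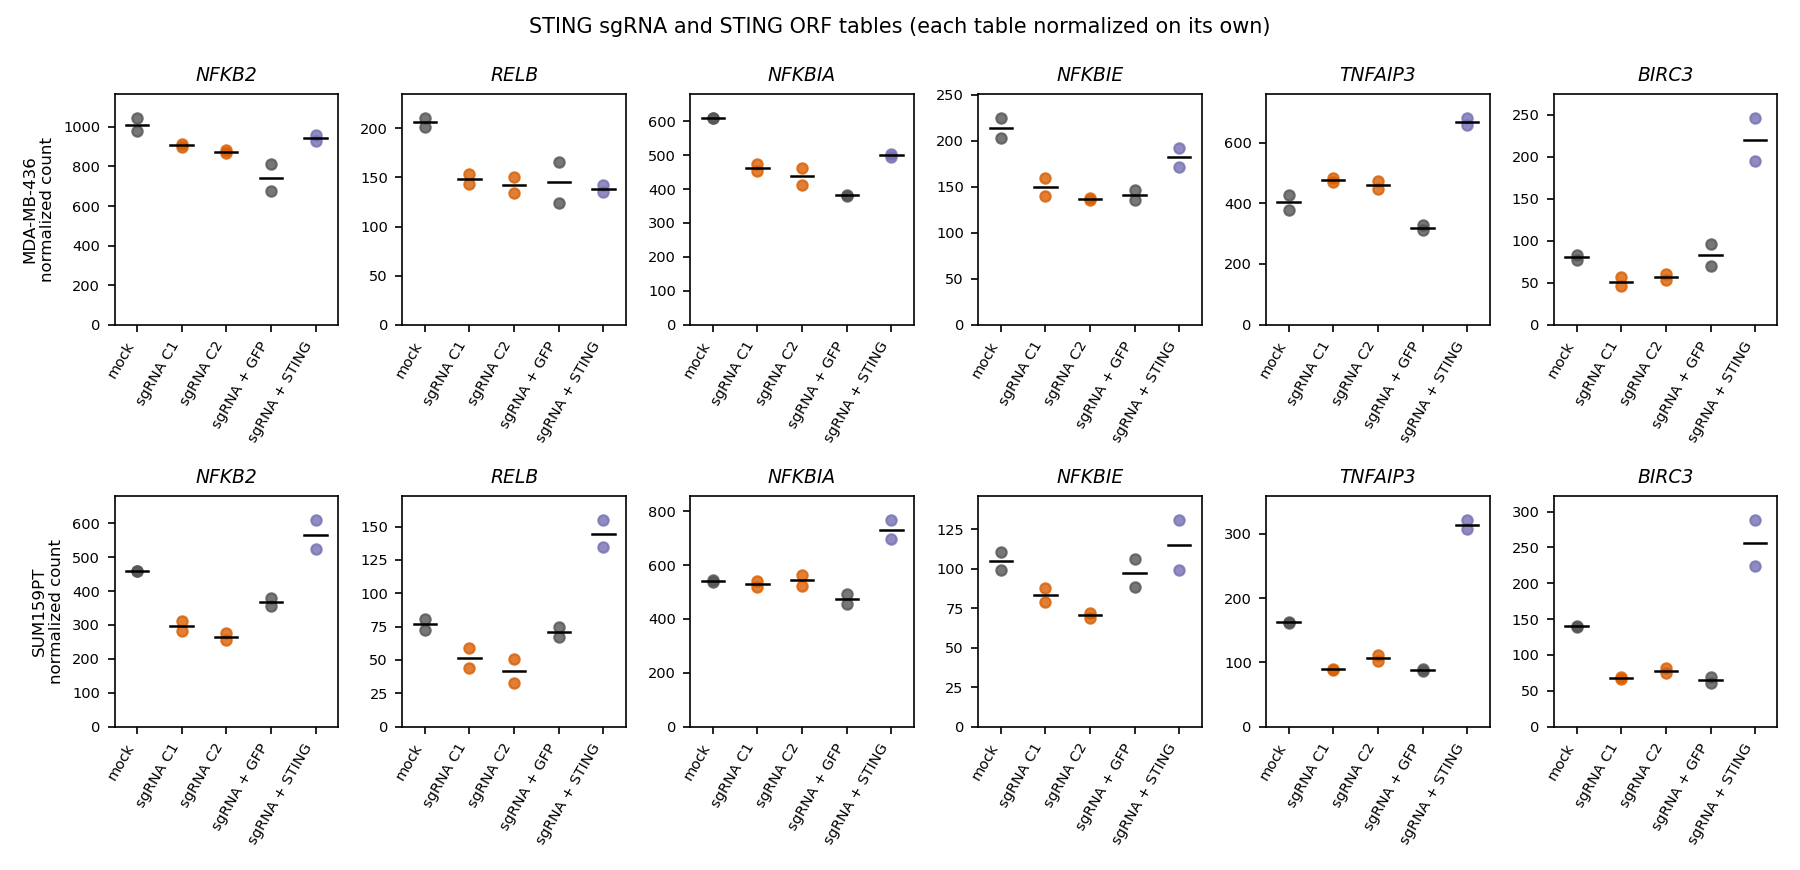
Points are normalized counts of single libraries and bars are group means, with each axis from 0; mock, sgRNA C1 and sgRNA C2 are from 1 table and the GFP and STING ORF groups from another, so levels are comparable only within a table. The STING ORF libraries are the highest of their table for TNFAIP3 and BIRC3 in both lines, at 659 to 681 for TNFAIP3 in MDA-MB-436.

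Other genes of the pathway were followed with 75 genes in 7 lists. These lists were chosen with earlier results of these data known, and the genes named have the largest changes of their list. Over all tested genes, 9.2% rose and 11.9% fell with the ORF in MDA-MB-436, and 13.2% rose and 12.8% fell in SUM159PT. In MDA-MB-436, 10 of 15 tested inducible targets rose with the STING ORF and 1 fell (median 0.62), among them CXCL8, a neutrophil chemokine (304 ± 41.3 with GFP, 2792 ± 187 with STING, SD, n = 2 each, 3.20 ± 0.09), IL6 (2.89 ± 0.11) and the prostaglandin synthase gene PTGS2 (2.89 ± 0.20). In SUM159PT 7 of 13 rose and 0 fell (median 0.45), with CXCL8 at 2.59 ± 0.15 and the adhesion molecule gene ICAM1 at 0.65 ± 0.09. Brakes on NF-kB included ZC3H12A, an RNase that degrades inflammatory transcripts, which rose in both (0.67 ± 0.11 and 0.66 ± 0.14). Of the 10 IKK and upstream kinase genes, 1 rose and 0 fell in MDA-MB-436 and 1 rose and 1 fell in SUM159PT.

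The calls with the ORF depended on the filter against low counts. Without it, 0 of the 10 genes passed in MDA-MB-436 (adjusted p from 0.112 to 0.331 for the 8 genes) and 0 in SUM159PT (0.0845 for each of the 5), at the same fold changes, and over all genes 4 and 0 passed. DESeq2 on recovered reads, run for MDA-MB-436, called 4 genes and gave no adjusted p for TRAF1. It did not call NFKBIE (DESeq2 adjusted p = 0.273), RELA (0.188) or REL (0.151). NFKB2 missed the threshold without GFP library 2 (0.0717), and TNFAIP3, BIRC3, TRAF1 and NFKBIA passed whichever library was left out. The shares of all genes called moved as well. Leaving out single libraries gave between 1247 calls (without STING ORF library 2) and 3610 in MDA-MB-436, against 3134 with all, and between 1257 (without GFP library 1) and 5463 in SUM159PT, against 3875. Without GFP library 1 in MDA-MB-436 there were 1707, and without GFP library 2 in SUM159PT 1489.

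With a STING sgRNA, most of the genes that passed the test fell. In MDA-MB-436, 1 of the 10 genes rose and 6 fell, where 24.8% of 15305 tested genes rose and 23% fell. In SUM159PT, 0 of 9 tested rose and 5 fell, where 19.3% of 15168 tested genes rose and 19.8% fell. RELB, NFKB2, NFKBIE and BIRC3 fell in both lines. TNFAIP3 fell in SUM159PT and rose slightly in MDA-MB-436. The median change was -0.25 and -0.44, against 0.01 and -0.00 over all genes. The 2 MDA-MB-436 mock libraries differed by little more than counting noise. Their chi-square per gene was 1.02 over 17695 genes and 1.3 over the 101 genes of most reads. A fit with this pair counted as 1 sample was not run.

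Among the subunits, RELB was at 202 and 210.4 in mock cells of MDA-MB-436, 143 and 153 in C1 and 150 and 134 in C2 (-0.50 ± 0.10, limma adjusted p = 0.000116). In SUM159PT it was at 72.5 and 80.6, 43.6 and 58.7 and 50.4 and 33 (-0.74 ± 0.18, limma adjusted p = 0.00101, but 0.0979 with no filter on low counts). Mock libraries were the 2 highest in each line. NFKB2 was at 459.7 and 458 in SUM159PT mock cells, 310.3 and 282 in C1 and 255 and 276 in C2 (-0.71 ± 0.07, limma adjusted p = 1.11e-10), and its fall in MDA-MB-436 was smaller (-0.18 ± 0.05, limma adjusted p = 0.00247, and 0.124 without mock library 1). NFKB1 fell slightly in MDA-MB-436 (-0.13 ± 0.05, limma adjusted p = 0.0483), a call that ended in 8 of 12 alternatives, and was at 0.01 ± 0.05, limma adjusted p = 0.876 in SUM159PT. RELA and REL passed the test in neither line, at -0.10 ± 0.05 and 0.30 ± 0.14 in MDA-MB-436 and -0.12 ± 0.05 and 0.14 ± 0.15 in SUM159PT.

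Among the inhibitors, NFKBIA was at 609 and 609 in MDA-MB-436 mock cells, 453 and 474 in C1 and 462 and 412 in C2 (-0.44 ± 0.06, limma adjusted p = 1.32e-06). In SUM159PT it was at 538 and 545, 541 and 517 and 564 and 523 (-0.02 ± 0.06, limma adjusted p = 0.87). All 4 sgRNA libraries lay below mock in the first line, and the groups overlapped in the second. NFKBIE, whose product is a slower IkB, fell from 203 and 224 to 159 and 139.8 in C1 and 135 and 137 in C2 in MDA-MB-436 (-0.58 ± 0.10, limma adjusted p = 2.25e-05). Its fall in SUM159PT (-0.44 ± 0.14, limma adjusted p = 0.00782) was lost with DESeq2 (0.125) and with C1 alone against mock (0.136).

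Among the feedback targets, BIRC3 was at 139 and 140.1 in SUM159PT mock cells, 66.4 and 69.2 in C1 and 81.3 and 74.1 in C2 (-0.94 ± 0.13, limma adjusted p = 1.67e-07). In MDA-MB-436 it was at 83 and 77.5, 46.1 and 56.3 and 53 and 60.4 (-0.57 ± 0.16, limma adjusted p = 0.00393, and 0.0667 without mock library 1). Every sgRNA library was below every mock library in both lines. TNFAIP3 was at 161 and 163 in SUM159PT mock cells, 88.3 and 90.2 in C1 and 102 and 111 in C2 (-0.73 ± 0.12, limma adjusted p = 2.13e-06). In MDA-MB-436 the order was turned, with 427 and 378 in mock, 485 and 472 in C1 and 473 and 447 in C2 (0.22 ± 0.07, limma adjusted p = 0.00663, and 0.25 without mock library 2). TRAF1 had 77 reads over the 6 MDA-MB-436 libraries (-0.32 ± 0.32, limma adjusted p = 0.432) and 13 over those of SUM159PT, where it was below the filter.

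Leaving out mock library 1 reduced the count of called genes in MDA-MB-436 from 7 to 4, NFKB1, NFKB2 and BIRC3 being those lost. None of the 10 genes differed between C2 and C1 in MDA-MB-436 (0 by limma, also 0 at unadjusted p below 0.05, with 0.797% of all genes called), and none of 9 in SUM159PT (0 by limma and 0 at unadjusted p below 0.05, with 19.9% of all genes called). In SUM159PT, the leukocyte surface gene PTPRC was at 103.8 in mock cells and at 3.0 and 2.06 in C1 and C2. The sum over the 6 listed leukocyte markers went from 114 to 133 down to 9.27 to 15.2, and PTPRC made up most of it in mock cells. LYZ was listed at 0 in the mock libraries and CD3E and MS4A1 were not listed in that table. Of 5 mesenchymal markers there, 3 rose and 2 fell, and of 2 epithelial markers 1 rose and 0 fell. In MDA-MB-436 the leukocyte sum went the other way, from 1030 to 1057 in mock cells to 1233 to 1327 in the sgRNA groups, with the 1 tested marker higher (5 of 8 markers listed). There 4 of 5 mesenchymal markers rose and 1 fell, and 2 of 2 epithelial markers fell. The part of these markers in the result was not tested. In the bulk samples of this series, fewer cells of a type and less RNA per cell cannot be told apart.

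Of the other pathway genes, 8 of 14 tested inducible targets fell and 1 rose in MDA-MB-436 (median -0.25), and 8 of 13 fell and 1 rose in SUM159PT (median -0.29). Beside these counts and those of the markers above, 24.8% of all tested genes rose and 23% fell in MDA-MB-436. In SUM159PT these shares were 19.3% and 19.8%. SOD2, a mitochondrial antioxidant enzyme, went from 6952 ± 116 in mock to 3987 ± 186 in C1 and 4063 ± 131 in C2 in MDA-MB-436 (SD, n = 2 each, -0.79 ± 0.03). CXCL8 fell in SUM159PT (-1.24 ± 0.14). NFKBIZ and BCL3, atypical nuclear IkB proteins, fell in MDA-MB-436 (-0.67 ± 0.08 and -0.66 ± 0.07).

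In Tax-R cells, the libraries labelled MYC siRNA had less NFKB1, NFKBIA and BIRC3 and more TNFAIP3 and TRAF1 than control siRNA in both human lines, so that the feedback targets split by direction. In MDA-MB-436, 4 of the 10 genes rose and 4 fell, where 34% of 15399 tested genes rose and 33.7% fell. In SUM159PT, 3 rose and 4 fell, where 35% of 15796 rose and 34.5% fell. In 4T1, 3 of the 10 rose and 2 fell, where 24.7% of 14081 rose and 21.5% fell. These shares are near those of all genes in all 3 lines, and the medians of the 10 genes, at -0.07, -0.05 and -0.05, were near the -0.01 of all genes.

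NFKB1, which encodes p105 and p50, was at 868 and 919 with control siRNA in SUM159PT, 436 and 443 with MYC siRNA-1 and 420.2 and 433 with MYC siRNA-2 (-1.04 ± 0.06, limma adjusted p = 1.33e-20). In MDA-MB-436 it was at 979 and 944, 585 and 579.8 and 605 and 579.8 (-0.71 ± 0.05, limma adjusted p = 2.49e-13). In 4T1 it was at 1399, 1355 and 1352, 1225, 1194 and 1187 and 1274, 1243 and 1227 (-0.16 ± 0.04, limma adjusted p = 0.0026). All control libraries were above all MYC siRNA libraries in each line, by a wide gap in the human lines and a narrow gap in 4T1. The other subunits moved less. NFKB2 was at -0.14 ± 0.04 in MDA-MB-436, -0.09 ± 0.05 in SUM159PT and 0.13 ± 0.05 in 4T1, past the threshold in MDA-MB-436 and 4T1, and the 4T1 call ended with quantile normalization (0.05, adjusted p = 0.403). RELB rose by small amounts in both human lines (0.16 ± 0.07, limma adjusted p = 0.0494 in MDA-MB-436, 0.18 ± 0.07, limma adjusted p = 0.0223 in SUM159PT), calls that ended in 8 and 5 of 14 alternatives. RELA fell in SUM159PT (-0.24 ± 0.06, limma adjusted p = 0.000441) and rose in 4T1 (0.17 ± 0.05, limma adjusted p = 0.00456, and 0.0631 with quantile normalization). REL passed the test in none of the 3 lines (-0.15 ± 0.11, -0.01 ± 0.10 and -0.12 ± 0.08).

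NFKBIA was at 987 and 961 with control siRNA in MDA-MB-436, 603 and 651 with MYC siRNA-1 and 707 and 691 with MYC siRNA-2 (-0.56 ± 0.05, limma adjusted p = 3.81e-11). In SUM159PT it was at 1889 and 1819, 1258 and 1219 and 1242 and 1294 (-0.56 ± 0.05, limma adjusted p = 1.46e-15). The control libraries were the 2 highest in each human line, and in 4T1, where NFKBIA also fell (-0.25 ± 0.06, limma adjusted p = 0.000718), control library 2 lay within the range of the MYC siRNA libraries. NFKBIE rose in MDA-MB-436 (0.29 ± 0.09, limma adjusted p = 0.0068, but 0.096 with DESeq2 and 0.116 without control library 1) and passed the test in neither SUM159PT (0.16 ± 0.08) nor 4T1 (-0.07 ± 0.06).

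BIRC3 was at 2476 and 2741 with control siRNA in SUM159PT, 877 and 843 with MYC siRNA-1 and 834 and 845 with MYC siRNA-2 (-1.62 ± 0.05, limma adjusted p = 5.62e-32). In MDA-MB-436 it was at 277 and 285, 107 and 103 and 134 and 107 (-1.32 ± 0.10, limma adjusted p = 3.64e-12). In 4T1 it was at 192, 190.2 and 179.8, 205, 197 and 179 and 186, 174 and 158 (-0.04 ± 0.08, limma adjusted p = 0.744). The groups were far apart in the human lines and overlapped in 4T1. TNFAIP3 was at 355 and 385 in MDA-MB-436 controls, 572 and 626 with MYC siRNA-1 and 692 and 618 with MYC siRNA-2 (0.76 ± 0.06, limma adjusted p = 7.21e-12). In 4T1 it was at 1747, 1583 and 1808, 2524, 2594 and 2412 and 2473, 2423 and 2466 (0.54 ± 0.04, limma adjusted p = 1.82e-10), and in SUM159PT the rise was smaller (0.20 ± 0.05, limma adjusted p = 0.000413). In all 3 lines every MYC siRNA library was above every control library. TRAF1 was at 33 and 33 in MDA-MB-436 controls, 74.2 and 82.6 with MYC siRNA-1 and 81.6 and 74.1 with MYC siRNA-2 (1.22 ± 0.15, limma adjusted p = 5.44e-08). In SUM159PT it was at 28.8 and 24.8, 38.7 and 43.7 and 52.3 and 46.3 (0.73 ± 0.20, limma adjusted p = 0.0012), and in 4T1, where its level was higher, the change was -0.10 ± 0.05, limma adjusted p = 0.105.

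**Figure D3:**
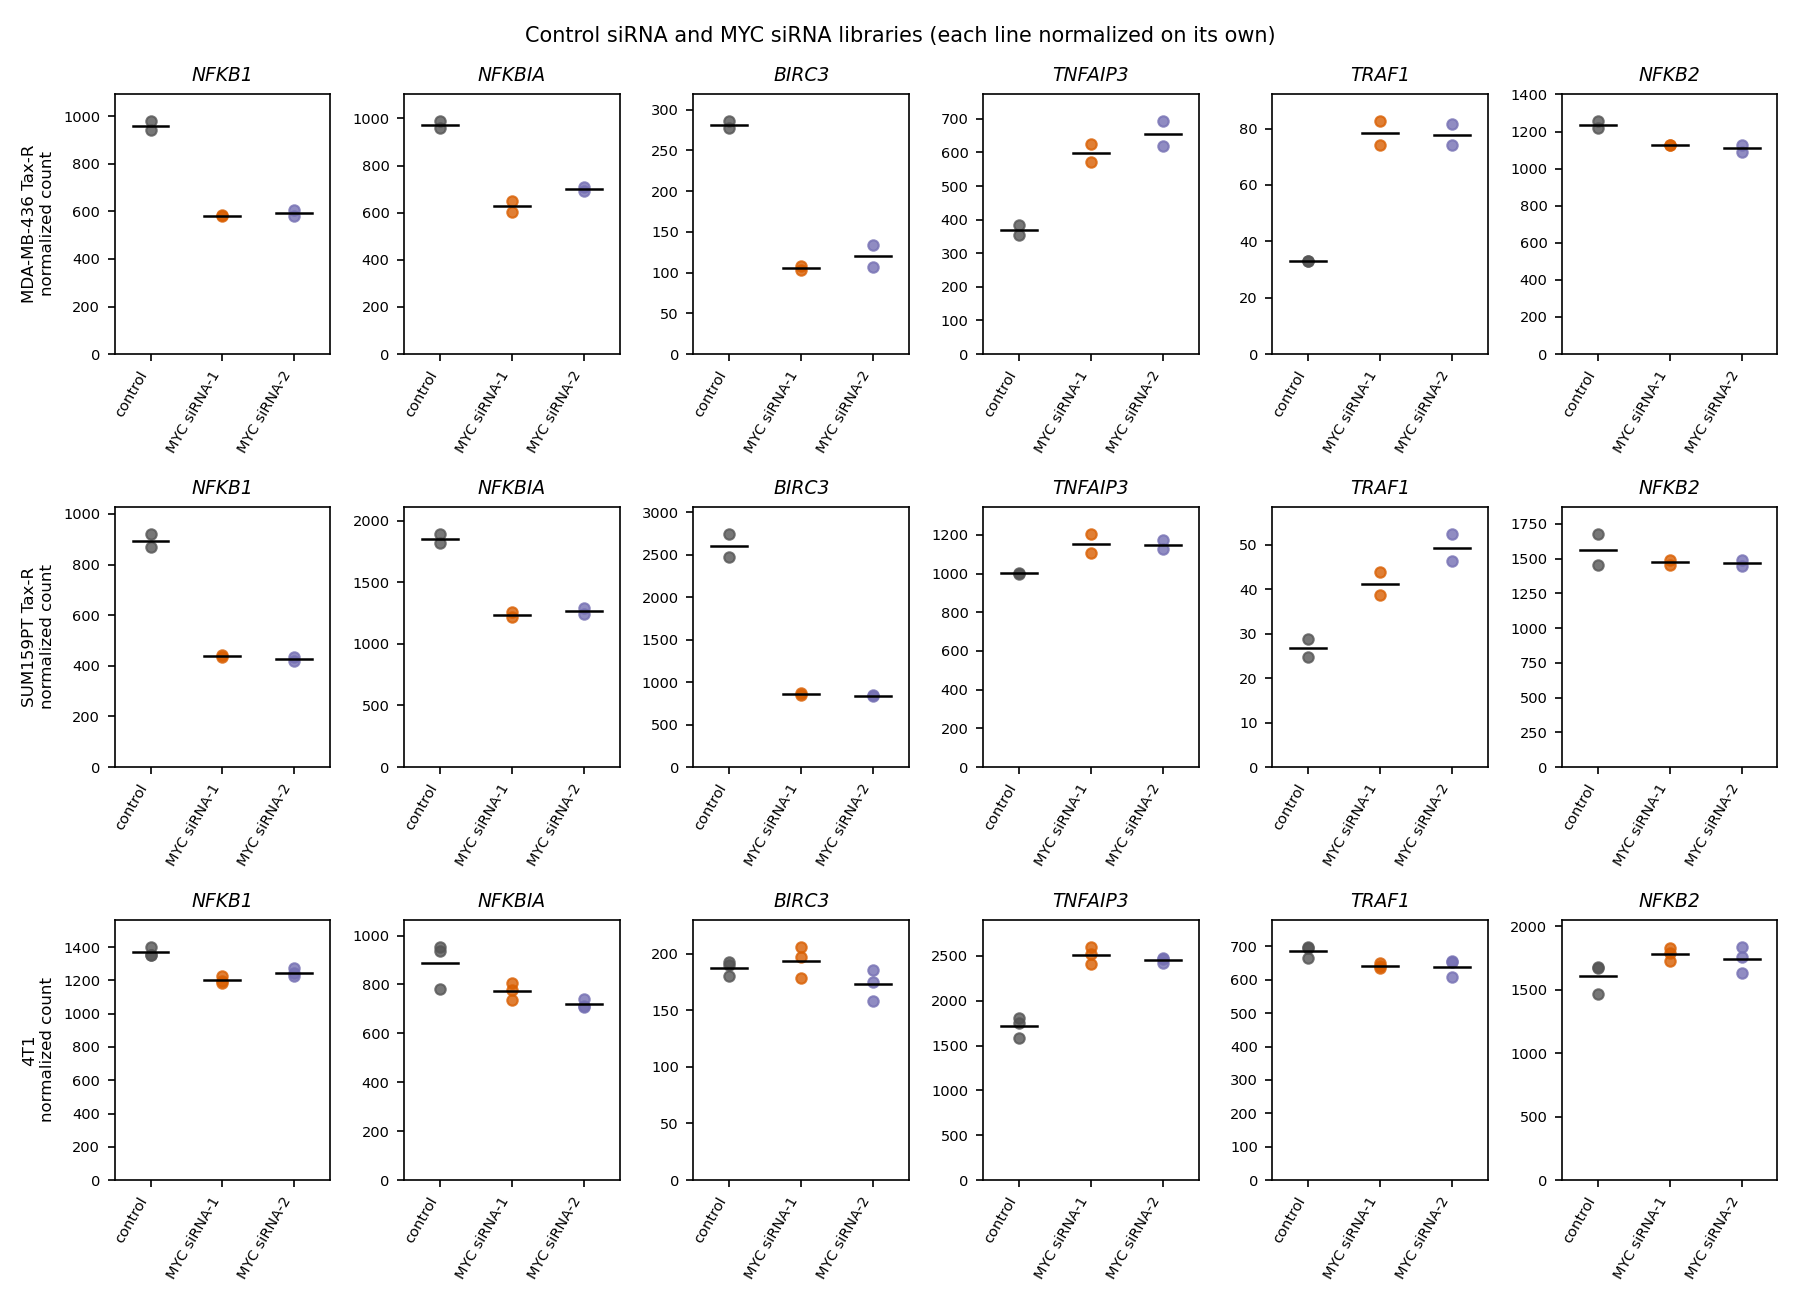
Points are normalized counts of single libraries and bars are group means, with each axis from 0; rows are cell lines, each from its own table. NFKB1 and BIRC3 are lower in both MYC siRNA groups of the human lines, whereas BIRC3 in 4T1 overlaps between groups at 158 to 205.

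Both MYC siRNAs gave like values for the 10 genes. None differed between siRNA-2 and siRNA-1 by limma: 0 of 10 in MDA-MB-436 (1 at unadjusted p below 0.05; 0.195% of all genes called), 0 in SUM159PT (0 at unadjusted p below 0.05; 0% called) and 0 in 4T1 (0 at unadjusted p below 0.05; 0% called). A p above the threshold does not show that they act alike. Mesenchymal markers moved with these comparisons: 4 of 5 tested rose and 0 fell in each human line and 3 of 4 rose and 0 fell in 4T1. Epithelial markers rose in 1 of 2 in MDA-MB-436, 2 of 2 in SUM159PT and 4 of 5 in 4T1 with 0 falls, the 1 tested leukocyte marker fell in each human line, and 0 of 3 changed in 4T1. The part of these markers in the result was not tested. Among the other pathway genes, 25 of 64 tested rose and 20 fell in MDA-MB-436, 25 of 65 rose and 22 fell in SUM159PT, and 22 of 63 rose and 10 fell in 4T1. Of all tested genes, 34% rose and 33.7% fell in MDA-MB-436, 35% and 34.5% in SUM159PT, and 24.7% and 21.5% in 4T1. The pathway counts of the human lines were thus near the shares of all genes. The adaptor gene MYD88 rose in both human lines (0.71 ± 0.06 and 1.06 ± 0.07), as did the cytokine gene IL6 (2.25 ± 0.11 and 1.59 ± 0.17), while the IL-1 receptor subunit gene IL1RAP fell (-1.27 ± 0.06 and -1.79 ± 0.08). In 4T1 the prostaglandin synthase gene Ptgs2 (1.25 ± 0.04) and Il1a (1.15 ± 0.05) rose and Ccl20 fell (-1.70 ± 0.14).

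Tax-R cells, compared with parental cells, had lower levels of the feedback targets TNFAIP3 and BIRC3 and of NFKBIA and NFKB2 in both human lines, and no gene of the 10 rose. In MDA-MB-436, 0 rose and 8 fell, where 27.7% of 19085 tested genes rose and 26.9% fell. In SUM159PT, 0 rose and 4 fell, where 23.5% of 18370 rose and 22.1% fell, so that the share of falls was above that of all genes in MDA-MB-436 and closer to it in SUM159PT. The median change of the 10 genes was -0.92 and -0.24, against 0.01 over all genes in each table.

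Among the subunits of MDA-MB-436, NFKB2 was at 1286 and 1269.8 in parental cells against 641 and 667 in Tax-R cells (-0.97 ± 0.04, limma adjusted p = 8.22e-09), and RELB at 335 and 314 against 131 and 158 (-1.17 ± 0.09, limma adjusted p = 1.43e-06). RELA fell less (-0.31 ± 0.04, limma adjusted p = 4.93e-05), and NFKB1 (-0.10 ± 0.04, limma adjusted p = 0.0585) and REL (-0.03 ± 0.05, limma adjusted p = 0.611) did not pass the test. The non-canonical pair thus had the largest falls of the 5 subunit genes. In SUM159PT NFKB2 was at 764 and 821 against 595 and 663 (-0.33 ± 0.06, limma adjusted p = 0.00181, and 0.0798 with no filter on low counts), and RELB was at 137 and 148 against 153 and 175 (0.20 ± 0.11, limma adjusted p = 0.163). RELA, NFKB1 and REL were at 0.03 ± 0.04, -0.07 ± 0.05 and -0.16 ± 0.06.

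NFKBIA was at 614 and 639.7 against 465 and 429.9 in MDA-MB-436 (-0.49 ± 0.05, limma adjusted p = 1.69e-05) and at 652 and 698 against 546 and 536 in SUM159PT (-0.32 ± 0.05, limma adjusted p = 0.000904). The Tax-R libraries were below the parental libraries in both lines. NFKBIE fell in MDA-MB-436, from 479.9 and 455 to 258 and 252 (-0.87 ± 0.06, limma adjusted p = 3.43e-07). In SUM159PT its Tax-R libraries were the higher pair, at 266 and 269 against 233 and 238, without passing the test (0.18 ± 0.07, limma adjusted p = 0.0671).

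TNFAIP3 was at 880.5 and 869 in parental cells of MDA-MB-436 against 324 and 345 in Tax-R cells (-1.38 ± 0.05, limma adjusted p = 2.56e-09), and at 706 and 773 against 449 and 494 in SUM159PT (-0.65 ± 0.06, limma adjusted p = 3.41e-05). BIRC3 in SUM159PT was at 1081 and 1249.6 against 612 and 657 (-0.87 ± 0.07, limma adjusted p = 6.86e-06), and in MDA-MB-436 its 2 parental libraries, at 852 and 825, were each about 5 times the Tax-R libraries, at 154 and 166 (-2.38 ± 0.06, limma adjusted p = 2.36e-10). TRAF1 in MDA-MB-436 stood at 168 and 119 in parental and 32 and 41 in Tax-R libraries (-1.94 ± 0.19, limma adjusted p = 5.55e-06), so that the parental pair spread more than for the other genes. In SUM159PT TRAF1 was at 28.5 and 22.4 and 24.6 and 11.9, with 84 reads in all, and did not pass the test (-0.53 ± 0.34, limma adjusted p = 0.239).

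The 2 MDA-MB-436 Tax-R libraries differed by no more than counting noise over most genes (chi-square per gene 0.86 over 20795 genes), though not over the 91 genes of most reads (9.02). Counted as 1 sample, they left the 8 calls in place. Leukocyte markers moved with this comparison: 3 of 4 tested fell and 0 rose in MDA-MB-436, and 2 of 3 fell and 1 rose in SUM159PT, the rise being that of CSF1R (8.9 to 25.7). PTPRC, which made up most of the sum in parental cells, went from 2047 in parental to 308.9 in Tax-R cells of MDA-MB-436 and from 533 to 5.05 in SUM159PT. The sum over the list went from between 2102 and 2203 to between 300.3 and 429.9 in MDA-MB-436 (7 of 8 markers listed), and from between 572 and 599.6 to between 33.7 and 44.0 in SUM159PT (6 of 8 listed). CD3E, which defines T cells, was at 1.28 and 0 in MDA-MB-436, and LYZ and CD68 were at or below 3.04 in both lines. Of 5 mesenchymal markers, 2 rose and 1 fell in MDA-MB-436 and 4 rose and 0 fell in SUM159PT, and 2 of 3 and 2 of 2 tested epithelial markers fell, with 1 and 0 higher. The part of these markers in the result was not tested.

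**Figure D4:**
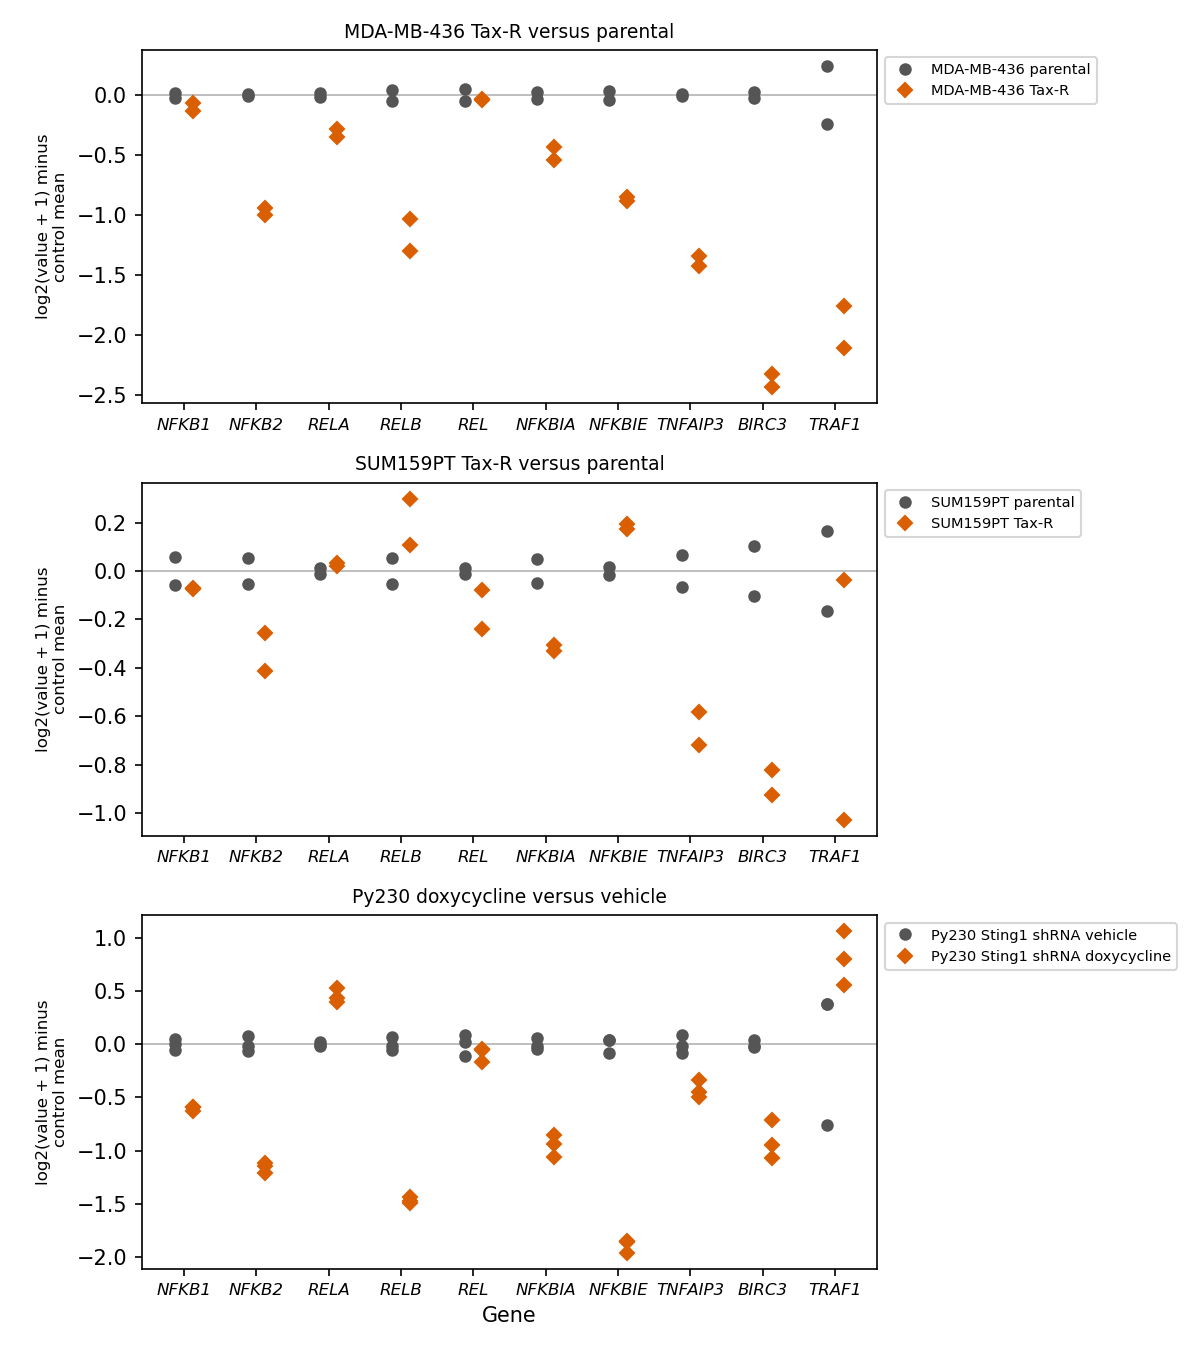
Each point is 1 library's log2(value + 1) minus the mean of the control group (grey, parental or vehicle); orange diamonds are Tax-R or doxycycline libraries, and the 3 panels have their own scales. In MDA-MB-436 the Tax-R points of BIRC3 lie near -2.4, and in Py230 those of Nfkbie lie near -1.9.

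Of the other pathway genes, 11 of 67 tested rose and 37 fell in MDA-MB-436, and 16 of 68 rose and 27 fell in SUM159PT. The inducible targets gave 15 and 12 of these falls, with 15 of 16 tested lower and 1 higher in MDA-MB-436 (median -1.05) and 12 of 16 lower and 2 higher in SUM159PT (median -0.74). Beside these counts and those of the markers above, 27.7% of all tested genes rose and 26.9% fell in MDA-MB-436. In SUM159PT these shares were 23.5% and 22.1%. The adhesion molecule gene VCAM1 went from 284 ± 38.8 to 2.53 ± 0.672 in MDA-MB-436 and from 166 ± 23.3 to 1.98 ± 2.8 in SUM159PT (SD, n = 2 each, -6.34 ± 0.22 and -6.22 ± 0.60). NFKBIZ fell in both (-1.39 ± 0.08 and -1.02 ± 0.06), and IRAK1, a kinase below Toll-like receptors, rose in both (0.44 ± 0.04 and 0.53 ± 0.04). The receptor gene CD40 fell in SUM159PT (-5.16 ± 0.30).

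In Py230 cells carrying a Sting1 shRNA, doxycycline was accompanied by lower levels of both IkB genes and of 3 subunit genes. Here 2 of the 10 genes rose and 7 fell, where 32.8% of 14461 tested genes rose and 35.1% fell, and the median was -0.76 against -0.01 over all genes. Markers moved too: 3 of 5 mesenchymal markers rose and 0 fell, their sum being 43430 to 44970 with vehicle and 59320 to 69120 with doxycycline, while 3 of 4 tested epithelial markers fell and 1 rose, 3 of 3 hormone receptor and Erbb2 genes fell and 1 of 3 leukocyte markers fell. Their part in the result was not tested. Nfkbie had the largest fall, from 244, 244 and 225 to 64.4, 65.2 and 60.3 (-1.89 ± 0.11, limma adjusted p = 8.04e-14). Relb was at 594, 645 and 612 with vehicle and 221, 218 and 226 with doxycycline (-1.47 ± 0.07, limma adjusted p = 8.51e-16), and Nfkb2 at 1056, 985 and 957 against 432, 451 and 460.2 (-1.16 ± 0.06, limma adjusted p = 3.99e-15). For these 3 genes the groups were far apart relative to their spread. Nfkb1 (-0.60 ± 0.05, limma adjusted p = 4.35e-11) and Nfkbia (-0.95 ± 0.06, limma adjusted p = 6.78e-13) fell as well.

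Rela was the subunit gene that rose in Py230, from 1171, 1167 and 1196 to 1555, 1591 and 1698 (0.45 ± 0.05, limma adjusted p = 5.66e-09), and Rel did not pass the test (-0.09 ± 0.10, limma adjusted p = 0.435). Birc3 was at 229, 220.3 and 219.6 against 135, 115 and 106 (-0.91 ± 0.10, limma adjusted p = 2.51e-08) and Tnfaip3 at 355, 381 and 339 against 262, 253 and 284 (-0.43 ± 0.08, limma adjusted p = 2.36e-05), both without overlap. Traf1 rose from a low level (0.81 ± 0.28, limma adjusted p = 0.0134, 150 reads in all), a call lost with DESeq2 (0.0553) and without vehicle library 1 (0.43, adjusted p = 0.133). Myc fell in this table too (-1.64 ± 0.05), and an effect of doxycycline and of the shRNA it induces cannot be told apart. Of the other pathway genes 13 of 57 tested rose and 32 fell, including the NIK gene Map3k14 (-1.39 ± 0.10), the chemokine gene Ccl2 (-4.02 ± 0.24) and the transcription factor gene Irf1 (-2.29 ± 0.08). Among all tested genes of this table, 32.8% rose and 35.1% fell.

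Between genes, levels were compared as RPKM, that is, RPM of the recovered reads divided by exon length in kilobases (union of exons in GENCODE v29), in the human tables. TRAF1 had the lowest level in most groups. In MDA-MB-436 mock cells NFKBIA stood at 37.7, NFKB2 at 33.1, RELA at 20.3, NFKB1 at 16, NFKBIE at 12.2, TNFAIP3 at 11.7, RELB at 9.97, BIRC3 at 1.57, REL at 0.825 and TRAF1 at 0.334 RPKM. In SUM159PT mock cells the order differed, with NFKBIA at 32.9, RELA at 19.2, NFKB1 at 16.4, NFKB2 at 14.8 and RELB at 3.64. In SUM159PT Tax-R cells with control siRNA BIRC3 reached 50.5 RPKM, beside NFKB2 at 50.8.

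Across tables, which were normalized separately, levels in RPM are a description only. Group means of NFKB1 in the human tables ran from 60.2 RPM in SUM159PT Tax-R cells with MYC siRNA-2 to 138.5 RPM in the control siRNA group of MDA-MB-436, and RELA had the narrower range of 80.8 to 117.5 RPM. BIRC3 varied widely, at 106 in SUM159PT parental cells, 20.2 in SUM159PT mock cells and 379.7 in SUM159PT Tax-R cells with control siRNA. REL was at 45.9 in MDA-MB-436 parental and 10.9 in MDA-MB-436 mock cells. The parental tables list 36036 and 34381 genes, against 26024 to 27152 in the other human tables, and the part of this in such differences was not tested.

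Over the 40 human libraries, values were centred within each table and compared by Pearson's r, which describes co-variation across libraries that share groups and tables. Among the 10 genes, NFKBIA and BIRC3 were most alike (r = 0.89), followed by NFKB2 with RELB (0.79) and with BIRC3 (0.79), and RELB with NFKBIE (0.78). RELA and REL had the lowest value (-0.35). NFKB1 had 0.73 with NFKBIA and 0.63 with BIRC3, but 0.22 with NFKB2 and -0.12 with TNFAIP3. Among 12382 genes tested in all human tables, those most like BIRC3 were NFKBIZ and NFKBIA (0.89 each), and those most like NFKBIA were BIRC3 and SOD2 (0.89 and 0.88). For NFKB1 they were SDCBP and TMEM245 (0.98 each), and for NFKBIE NR4A1 and ZC3H12A (0.80 each). For RELA the nearest were MTSS1L and UBALD2 (0.80 and 0.78) and for REL they were SHPRH and FAM135A (0.73 each). TRAF1 was below the filter in some tables and had no such value.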

How the data were processed

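RNA came from Maxwell RSC simplyRNA extractions and was read on Illumina instruments, per the labels. The values the authors deposited have the unit signal, being read counts of genes scaled by a single factor per library, separately in each of the 10 tables. HISAT2, featureCounts, StringTie and DESeq2 appear in the submitters' processing notes with no version, and no build is named there. Taking the smallest positive value of a library as 1 read made all values (100%) whole reads within a tolerance of 0.05. In 5 tables this check could not decide, since the step of at least 1 library was too close to 1. Read totals, RPM and RPKM from those tables rest on that undecided check. Depth was 5663610 to 13191675 reads per library, which limits the precision of low genes such as TRAF1. All 55 libraries were grouped by line and label, with 0 columns unmapped.

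A limma-trend model was fitted to log2(value + 1) in each table on its own, keeping genes whose mean over the table reached 10. Tests were two-sided, and a call needed a Benjamini-Hochberg adjusted p below 0.05 over all genes tested. Where a table had 2 perturbed groups, their average was set against the control in a fit of all 3 groups. Versions were 4.3.3 of R, 3.58.1 of limma, 4.0.16 of edgeR and 1.42.0 of DESeq2, and the count tools ran on recovered reads in 5 tables. The procedure was tested on simulated data. Named genes are the 10 members, the targeted genes MYC and STING1, up to 3 called genes per pathway list and comparison with the largest change and no overlap, and the 2 genes most like each member; a selection of these is printed. STING1 was listed as TMEM173. The members and lists were chosen with earlier results of these data known. Promoter sequences and their motif matches are from RefSeq, GRCh38.p14. The fits were repeated with quantile normalization, without the filter, with a pseudocount of 4, with edgeR and DESeq2, with a replicate block, for each reagent by itself, without each library in turn, and with the MDA-MB-436 Tax-R pair counted as 1.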

Additional observations from a re-analysis of the deposited data

Results flagged for a closer look

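In 7 cases the values of a gene did not overlap between groups in either of 2 lines, with differences of opposite sign under the same kind of contrast. This rule does not require either difference to pass the test, and groups this small can lie apart without a change. The share of all genes that meet the rule was not computed, so the count has no background to be set against. The difference between the lines was not tested, since each table was normalized and fitted alone. In Tax-R against parental cells, RELA was at -0.31 in MDA-MB-436 and 0.03 in SUM159PT, RELB at -1.17 and 0.20, and NFKBIE at -0.87 and 0.18. The SUM159PT changes of all 3 missed the threshold (limma adjusted p = 0.628, 0.163 and 0.0671), so opposite changes are not shown for them. With quantile normalization RELA in SUM159PT was at -0.01. With MYC siRNA, TRAF1 was at 1.22 in MDA-MB-436 Tax-R and 0.73 in SUM159PT Tax-R cells but at -0.10 in 4T1, where adjusted p was 0.105. RELA was at -0.24 in SUM159PT Tax-R cells and 0.17 in 4T1, past the threshold in each. With STING sgRNA, TNFAIP3 was at 0.22 in MDA-MB-436 and -0.73 in SUM159PT, past the threshold in each. No group had 4 or more libraries, so no library was tested for standing apart from its group.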

How the results depend on the processing

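Of the 66 calls of the 10 genes, 40 held under every alternative run for them and 0 changed direction, and no setting moved the median of all genes by more than 0.099. edgeR and DESeq2 were not run on 5 tables (both Tax-R tables, 4T1, the MDA-MB-436 sgRNA table and the SUM159PT ORF table), since in each the step of at least 1 library was too close to 1 for the check of whole reads to decide. With no filter on low counts, the members called went from 8 to 0 in MDA-MB-436 and from 5 to 0 in SUM159PT with the STING ORF, and the cause was not tested. DESeq2 called 4 of the 8 in MDA-MB-436, did not call RELA, REL and NFKBIE, and gave no adjusted p for TRAF1. Leaving out single libraries gave 5 to 7 there and 4 to 7 for the MDA-MB-436 sgRNA (7 with all). Over all genes, no filter left 4 of 3134 and 0 of 3875 calls in the 2 ORF tables. DESeq2 called 1090 with the MDA-MB-436 ORF, where it gave adjusted p for 11108 genes and limma for 14851. For C2 against C1 in SUM159PT it gave adjusted p for 6052 genes and limma for 15168. In SUM159PT with the sgRNA, DESeq2 called 3198 and C1 alone 3487, against 5927. Single libraries left out gave 1247 to 3610 and 1257 to 5463 calls in the ORF tables. Between C2 and C1, no filter left 0 of 122 calls in MDA-MB-436 and 0 of 3025 in SUM159PT, where DESeq2 called 969, and single libraries left out gave 5 to 382 and 1221 to 3403; between the siRNAs in MDA-MB-436, no filter gave 0 and edgeR 95, against 30, and single libraries left out 6 to 44. Correlations of same-numbered libraries lay between -0.18 and 0.24. They were highest with the ORF, at 0.155 in MDA-MB-436 and 0.236 in SUM159PT. A block by replicate number took all-gene calls there from 3134 to 4400 and from 3875 to 5225. Whether replicate numbers pair the libraries is not stated and was not settled by these values. With a replicate block the members' counts stayed within the limit, NFKB1 passed in MDA-MB-436 Tax-R (0.0487) and REL with the SUM159PT ORF (0.0381), NFKB1 was lost with the MDA-MB-436 sgRNA (0.0519), and all-gene calls went from 30 to 71 between the siRNAs and from 122 to 195 between C2 and C1 in MDA-MB-436. Reversed values were all of genes not called. With quantile normalization RELA was at -0.01 in SUM159PT Tax-R and REL at 0.05 in SUM159PT MYC siRNA. With 1 reagent alone, RELA was at -0.00 (MDA-MB-436, siRNA-2), REL at 0.04 (SUM159PT, siRNA-1), RELB at 0.02 (4T1, siRNA-2) and BIRC3 at 0.05 (4T1, siRNA-1), and in SUM159PT NFKB1 was at -0.01 and REL at -0.00 with C1 and NFKBIA at 0.00 with C2. Without single libraries, REL ranged from -0.09 to 0.02 in MDA-MB-436 Tax-R, RELA from -0.06 to 0.08 in MDA-MB-436 MYC siRNA, NFKB2 from -0.19 to 0.02 and REL from -0.08 to 0.05 in SUM159PT MYC siRNA, and RELB from -0.06 to 0.04 in 4T1. In the SUM159PT sgRNA table NFKB1 ranged from -0.01 to 0.04, REL from -0.20 to 0.48 and NFKBIA from -0.04 to 0.01, and RELB from -0.26 to 0.16 with the MDA-MB-436 ORF.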
